A study of Mus musculus with 4 samples.

Results

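The genes described here are 80 drug and steroid metabolism genes, measured by 200 array probes, out of 20795 named genes on the array. They were taken by name: Cyp followed by a digit, Ugt1 to Ugt3, Sult, Gsta, Gstm, Gstt or Gsto, on chromosomes 1 to 5, 7, 10, 11, 14, 16 and 17 of the mouse build mm9. They comprise 55 Cyp, 10 Ugt, 8 Sult and 7 Gst genes, and none lay on chromosomes 11 or 14. The name rule alone gives 116 genes, and the other 36 lie on other chromosomes. Of the 80, 26 had 1 probe of their own, 54 had at least 2 and 22 at least 3.

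Comparative genomic hybridisation arrays measured DNA copy number in liver tumours of 4 individual male C57BL/6J mice, not treated, with liver-specific loss of Trp53, the gene of the p53 tumour suppressor. Tumour DNA and reference DNA were hybridised together on 1 array per tumour. The reference was DNA pooled from 3 littermates of the same sex, spleen per the design and the tissue label, although in the labelling protocol the reference is named as liver. The genotype label is Trp53-/- for tumours and reference alike. Ages and the driver of the deletion are not given in the sources used here. There was no control tumour, and a gene expression readout was not part of these data, so marker genes of liver cells cannot be checked. Log2 ratios above 0 stand for a gain of tumour DNA over reference DNA. Each value is relative to the median of the array's autosomal probes. Sex is as the sources give it and was not tested here. In tumour 1 the lowest of all genes on the array was the Y-linked Eif2s3y, at -4.26, and the cause was not tested.

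Cytochromes P450 (Cyp) are haem enzymes that oxidise drugs, steroids, bile acids and fatty acids, above all in the liver. UDP-glucuronosyltransferases (Ugt), sulfotransferases (Sult) and glutathione S-transferases (Gst) then couple such molecules to water-soluble groups for excretion. Many of these genes arose by repeated duplication and sit side by side in tandem clusters of near relatives. Of the 80 genes, 59 formed 9 such clusters, defined as at least 2 genes of a family with gaps of at most 500 kb, and 21 stood alone.

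All arrays carried 180880 spots. The SD of noise between neighbouring probes was 0.26 and 0.32 in tumours 1 and 2, against 0.16 and 0.17 in tumours 3 and 4. Tumours 1 and 4 shared a slide. No probe of the 80 genes was dim, saturated or left out in any tumour. The mean log2 ratio of each chromosome carrying them lay between -0.05 and 0.02 in every tumour, so no such chromosome stood far from the array median.

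No gene of the 80 passed the test over the 4 tumours. With limma, which tested the mean of each gene against 0, 0 of 80 genes had an adjusted p under 0.05, in either direction, against 0.144% of all genes on the array, all of them lower. At an unadjusted p under 0.05 there were 20 of 80 (25%), against 25.1% of all genes. Of these, 9 were higher (10.3% of all genes were) and 11 lower (14.8%). The share was therefore that of the whole array. The median gene mean was 0.02, against -0.01 over all autosomal genes, and the range ran from -0.44 (Sult1a1) to 0.41 (Cyp2a12). After normexp background correction of the raw signals, 10 of the 80 genes (12.5%) passed the adjusted threshold, against 10.8% of all genes. Those lower were Sult1a1, Cyp4a10, Gsta3 and Ugt2b38. Those higher were Cyp20a1, Cyp2a22, Cyp4f13, Gstm6, Cyp2a12 and Gstm1. The limma p-values measure only the spread between these 4 tumours and leave out that of the reference.

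The lowest run of probes among the clusters was a stretch over Cyp2b13 and Cyp2b9, in tumours 1 and 2. Both genes encode liver P450s that are more abundant in female than in male mice. They belong to the Cyp2b/Cyp2a cluster on chromosome 7, 11 genes with 21 probes over 1350.6 kb, whose mean was -0.01 ± 0.06 (SD, n = 4 tumours). Of the probes of the pair, 4 are shown: both of Cyp2b13 and the first of Cyp2b9, which lie in the low stretch, and the last of Cyp2b9, which lies just outside it. They are named by gene with their mm9 position as listed in the files, and no mm9 gene annotation was used, so exons, introns and untranslated parts are not assigned.
Cyp2b13 at chr7:26863707-26863761: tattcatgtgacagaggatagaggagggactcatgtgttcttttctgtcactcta
Cyp2b13 at chr7:26876030-26876089: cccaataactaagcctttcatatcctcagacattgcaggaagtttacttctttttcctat
Cyp2b9 at chr7:26970872-26970931: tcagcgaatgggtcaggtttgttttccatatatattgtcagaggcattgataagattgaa
Cyp2b9 at chr7:26990684-26990743: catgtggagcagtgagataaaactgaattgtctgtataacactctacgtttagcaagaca
The longest run of letters shared by probes of different genes of this cluster was 10 bases, so none of the probe pairs shared the 20 bases set as the limit.

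Cyp2b13 had log2 ratios of -0.51, -0.84, -0.06 and -0.17 in tumours 1 to 4, with SEs over its 2 probes of 0.35, 0.35, 0.02 and 0.03. Tumours 1 and 2 were the lowest and tumour 3 was close to the reference. In tumour 4 both probes were below 0, at -0.14 and -0.20. The split of tumours 1 and 2 from tumours 3 and 4, here and in genes below, was noticed in the values. How many of all genes split in this way was not counted. The mean of Cyp2b13 was -0.39 ± 0.35 (SD, n = 4), with a limma adjusted p of 0.167. Cyp2b9 had -0.37, -0.59, 0.19 and 0.09, again low in tumours 1 and 2 and at or above the reference in the others. The first of its probes stood at -0.53 in tumour 1 and -0.96 in tumour 2. Its last probe, outside the low stretch described next, stood at 0.25 and 0.02. The limma adjusted p of Cyp2b9 was 0.467.

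The low values did not stop at the probes named for these genes. Taking consecutive probes around Cyp2b13 whose mean over tumours 1 and 2 was -0.2 or lower gave 9 probes at chr7:26762877-26981899, a stretch of 219 kb. It holds both Cyp2b13 probes, 2 of the 3 Cyp2b9 probes and 5 probes that the array design names by a transcript record and not by a gene symbol. The stretch was chosen after its values were seen, so its levels in tumours 1 and 2 are a description with no test. They were -0.63 ± 0.14 (SE over 9 probes) in tumour 1 and -0.91 ± 0.13 in tumour 2, which are ratios of 0.648 and 0.531 of the reference. Tumours 3 and 4, whose values were not used to choose the stretch, stood at 0.06 ± 0.06 and -0.10 ± 0.06. Probes at -0.2 or lower numbered 7, 9, 0 and 4 of the 9 in the order of the tumours. In tumour 4 the lowest probe of the stretch was at -0.30.

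**Figure D1:**
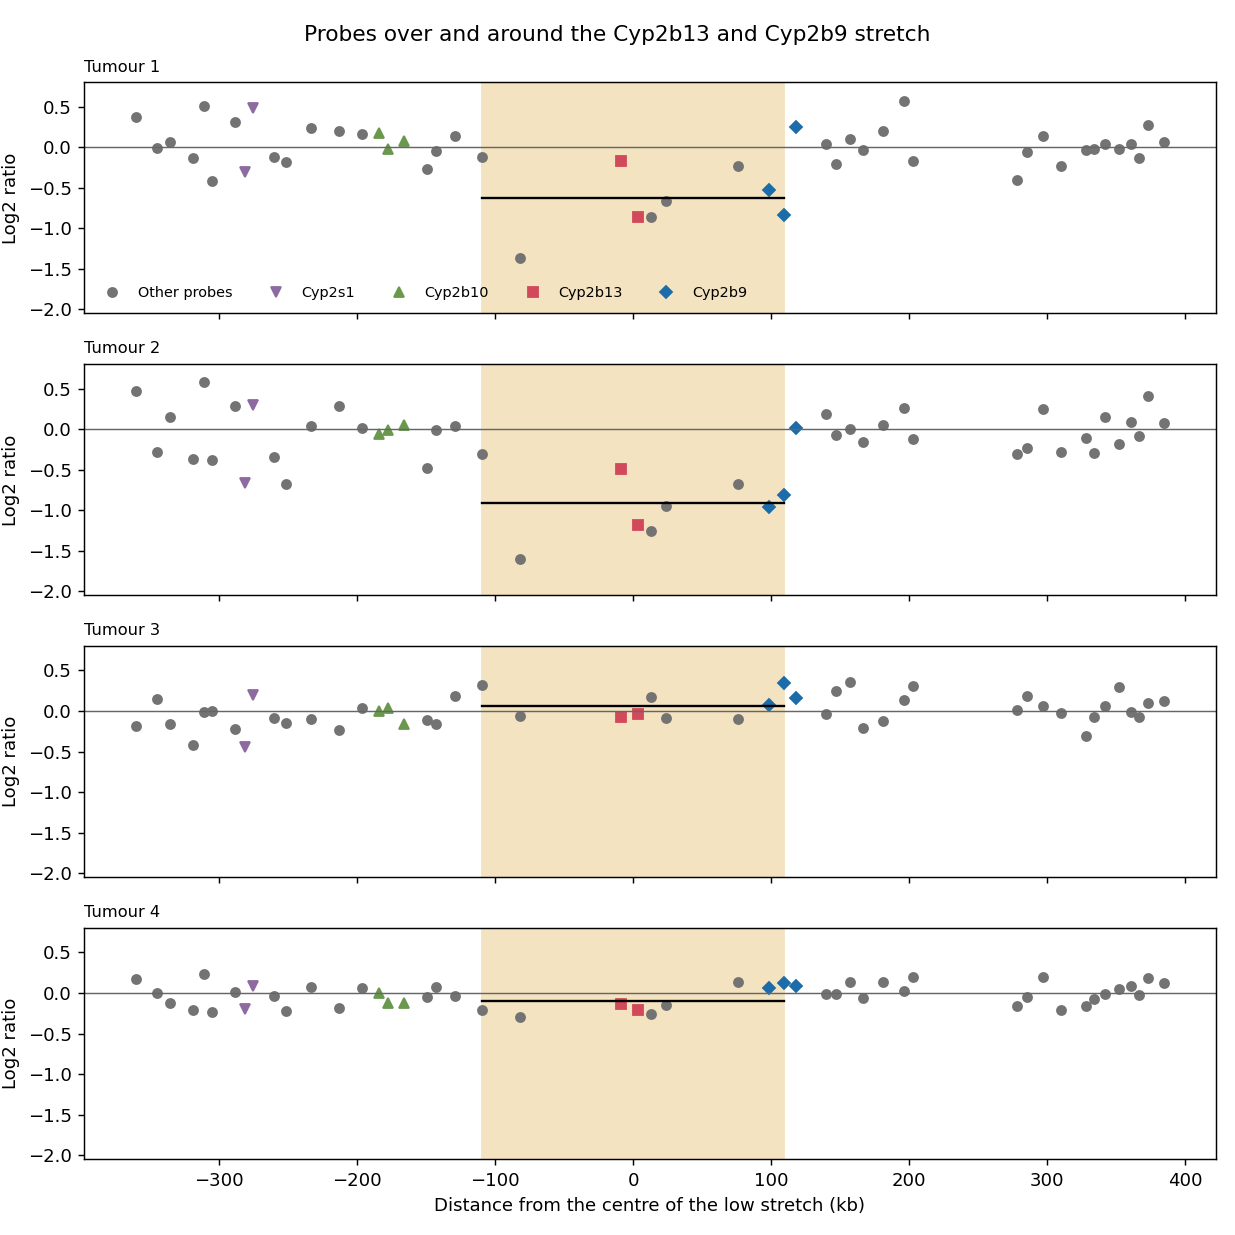
Log2 ratio of each probe (y axis) against its distance in kb from the centre of the low stretch (x axis), 1 panel per tumour, with the 9 probes of the stretch on a shaded band, their mean as a black line, and 20 further probes on each side; red squares are Cyp2b13, blue diamonds Cyp2b9, green triangles Cyp2b10 and purple triangles Cyp2s1. The band lies at -0.63 and -0.91 in tumours 1 and 2 and near 0 in tumours 3 and 4.

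On average, levels on both sides were near the reference in tumours 1 and 2. The 20 probes before the stretch averaged 0.06 ± 0.06 (SE over probes) in tumour 1 and -0.05 ± 0.08 in tumour 2, and the 20 probes after it 0.02 ± 0.05 and -0.02 ± 0.04. Cyp2b10, a P450 strongly induced by phenobarbital and the neighbour on the near side, was at 0.08, -0.01, -0.04 and -0.08 in tumours 1 to 4. Relative to its 40 flanking probes the stretch lay at -0.67, -0.88, 0.08 and -0.09. Just inside the limits, the first probe stood at -0.12 and -0.30 in tumours 1 and 2. Just outside, the preceding probe stood at 0.14 and 0.04 and the following one, the last Cyp2b9 probe, at 0.25 and 0.02. The limits were set where the mean over tumours 1 and 2 rose above -0.2, so these outer probes were higher by construction. Further out, the probe at chr7:26722995-26723054 stood at -0.27 and -0.48.

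Under other processing the stretch stayed low in the same tumours. In tumours 1 and 2 it was at -0.66 and -0.91 after correction for probe GC content, at -0.59 and -0.88 after correction for brightness, and at -0.78 and -1.01 after normexp correction. Mean reference signals over the 9 probes were 1289.9 and 1438.6 units in tumours 1 and 2 against 1541 and 1377.9 in tumours 3 and 4. Tumour signals were 874.7 and 808.2 against 1578.5 and 1348.8, so the tumour channel was the low one. In a scan of all runs of 7 neighbouring probes on the same chromosomes, those with a mean of -0.5 or lower were 0.0914% of 102799 in tumour 1 and 0.182% in tumour 2. Among the 527 runs that hold a probe of the 80 genes they were 5 (0.949%) and 8 (1.52%), all over this stretch, with overlapping runs sharing probes. In tumours 3 and 4 there were 0 such runs with a member probe, against 0.0661% and 0.0944% of all runs. The runs counted in tumours 1 and 2 cover 1 place chosen for its low values, so their shares are a description with no test. The lowest run over the stretch was at -1.02 in tumour 2, the 23rd lowest of all runs in that tumour. The noise between probes was highest in the same 2 tumours, and its part in the result was not tested.

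Beyond the low stretch, most of the remaining genes of the cluster had means above 0. Of all 80 genes, 42 did. Cyp2b23 and Cyp2s1 each lay at a mean of -0.07. Cyp2b19, Cyp2g1, Cyp2a22, Cyp2a12, Cyp2f2 and Cyp2t4 had means between 0.12 and 0.41, each from 1 or 2 probes. With all probes within 50 kb these means were -0.0011, -0.04, 0.14, 0.19, 0.08 and 0.00063. All probes of the cluster's span, the low stretch included, averaged -0.00051, -0.12, 0.01 and -0.01 in tumours 1 to 4. Cyp2b19, an arachidonic acid epoxygenase of the skin, had 0.35, 0.35, -0.07 and 0.14 in tumours 1 to 4, with a limma adjusted p of 0.213. Cyp2f2, which oxidises naphthalene in the airway and liver, had 0.37, 0.36, -0.04 and 0.03 (limma adjusted p = 0.251). In both genes tumours 1 and 2 were above tumours 3 and 4. The SE over the 2 probes of Cyp2f2 was 0.21 in tumour 1 and 0.26 in tumour 2, as 1 probe carried most of its height. After brightness correction Cyp2f2 stood at 0.22, 0.15, -0.01 and -0.03, a mean of 0.08 against 0.18 before.

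Cyp2a12, a steroid and bile acid hydroxylase at chr7:27815143-27815189, had the highest mean of the 80 genes. Its log2 ratios were 0.58, 0.44, 0.28 and 0.34, above 0.2 in all 4 tumours. The mean was 0.41 ± 0.13 (SD, n = 4) and the limma adjusted p was 0.0996, the lowest of the 80. This rests on a single probe of 47 bases and 46.8% GC, against a median of 36.7% over the array's probes. After brightness correction the probe stood at 0.35, 0.20, 0.30 and 0.25. All probes within 50 kb averaged 0.19. Its probe is shown because of that base composition.
Cyp2a12 at chr7:27815143-27815189: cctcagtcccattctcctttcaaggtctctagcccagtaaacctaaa

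The clusters of the other P450 families had means near 0. Cyp3a holds the main drug-oxidising P450s of the liver, 6 genes with 15 probes on chromosome 5, and its mean was -0.04 ± 0.06 (SD, n = 4). The lowest member was Cyp3a16, a P450 of the fetal liver, with -0.24, -0.28, -0.03 and -0.19 and a limma adjusted p of 0.150. One of its 3 probes stood at -0.76 and -0.66 in tumours 1 and 2, and the other 2 averaged 0.02 and -0.08, so the gene was not low along its length. After brightness correction the mean of Cyp3a16 was -0.07, against -0.18 before. Cyp3a59 was the highest, at a mean of 0.08 (-0.04 after brightness correction). Cyp3a13 lies on the same chromosome outside the cluster and was named after its values were seen. It had -0.21, -0.27, 0.02 and -0.22 (limma adjusted p = 0.172), and its mean of -0.17 was -0.095 after brightness correction.

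Cyp4a, 9 genes with 14 probes on chromosome 4, includes fatty acid omega-hydroxylases induced through PPARalpha, together with Cyp4x1 and Cyp4b1. Its mean was 0.02 ± 0.05 (SD, n = 4). Cyp4a10, a classic PPARalpha target, stood at -0.31, -0.49, -0.04 and -0.32, low in tumours 1, 2 and 4 but not in tumour 3. Its mean was -0.29 ± 0.19 (SD, n = 4), with a limma adjusted p of 0.136. Both Cyp4a10 probes were low in tumours 1, 2 and 4, at -0.18 and -0.43, -0.37 and -0.61, and -0.31 and -0.33. The neighbour Cyp4a14 was at a mean of 0.04 on one side and Cyp4a31 at 0.05 on the other. Cyp4a12b, an arachidonic acid hydroxylase, was highest at 0.25, 0.05, 0.27 and 0.14, from 1 probe. Cyp4b1 had 0.27, 0.30, -0.11 and 0.03.

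Cyp2j encodes epoxygenases of arachidonic acid, 8 genes with 31 probes over 612 kb of chromosome 4, the cluster with the most probes here. Its mean was the lowest of the 9, at -0.07 ± 0.09 (SD, n = 4), with -0.09, -0.16, 0.06 and -0.08 in tumours 1 to 4. Cyp2j12 stood at -0.18, -0.56, -0.10 and -0.33 (limma adjusted p = 0.139). A single Cyp2j12 probe was at -1.36 in tumour 2 and -0.90 in tumour 4, whereas its other 3 probes averaged -0.29 and -0.14. Cyp2j5 had -0.32, -0.27, 0.00 and -0.20 (limma adjusted p = 0.159). Of its 3 probes, 1 stood at -0.62, -0.61, 0.02 and -0.46, and the other 2 averaged -0.17, -0.10, -0.01 and -0.06. All probes within 50 kb of Cyp2j5 averaged -0.007, and its mean of -0.20 was -0.14 after brightness correction. Cyp2j9 was highest at a mean of 0.08. The other 5 Cyp2j genes had means between -0.05 and 0.00.

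Cyp4f, with hydroxylases of leukotrienes and long-chain fatty acids, has 7 genes with 17 probes on chromosome 17 and had a mean of 0.03 ± 0.09 (SD, n = 4). Cyp4f13 was highest at 0.39, 0.27, -0.08 and 0.22, below 0 only in tumour 3. Its limma adjusted p was 0.206, and its 2 probes had 42.3% GC. After brightness correction its mean was 0.05. Cyp4f40 had 0.31, 0.29, 0.10 and 0.06 (limma adjusted p = 0.156). Cyp4f17 was at 0.04, 0.16, -0.20 and -0.15, and Cyp4f14 at 0.11, 0.21, -0.14 and -0.09. In both, tumours 1 and 2 lay above the other 2. The SEs over 2 probes in tumours 1 and 2 were 0.24 and 0.36 for Cyp4f17 and 0.20 and 0.20 for Cyp4f14.

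A pair of Cyp4f genes show how far probes of 1 gene can part. Cyp4f16 had gene means of -0.07, -0.08, 0.05 and -0.15, but its first probe stood at 0.59, 0.60, -0.13 and 0.33 and its second at -0.72, -0.77, 0.23 and -0.62. The mean log2 signal over the tumours was 10.8 for the first and 8.68 for the second. The probes are shown for their base composition, 38.3% and 33.3% GC.
Cyp4f16 at chr17:32679969-32680028: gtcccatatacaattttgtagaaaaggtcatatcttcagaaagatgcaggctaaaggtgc
Cyp4f16 at chr17:32686671-32686730: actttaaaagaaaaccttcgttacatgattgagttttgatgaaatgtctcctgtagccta
Cyp4f39 had 1 probe at -0.81, -1.12, -0.26 and -0.64, whereas its other 4 averaged 0.29, 0.20, -0.05 and 0.14. Its gene mean was -0.03.

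Among P450s outside clusters, Cyp51 and Cyp27a1 were low in tumour 2, with SEs over 2 probes of 0.23 and 0.15 there. All probes within 50 kb of them averaged -0.07 and -0.04. In the same tumour Cyp39a1, with 8 probes, was at 0.16, Cyp7b1 at -0.01 and Cyp7a1 at -0.22. Cyp51, the lanosterol demethylase of cholesterol synthesis, had -0.35, -0.57, 0.07 and -0.17 (limma adjusted p = 0.208). Cyp27a1, a mitochondrial sterol hydroxylase of bile acid synthesis, had -0.22, -0.53, 0.18 and -0.11 (limma adjusted p = 0.377). After brightness correction the tumour 2 values were -0.37 and -0.28, and the means -0.15 and -0.02 against -0.26 and -0.17 before. Cyp2u1, a fatty acid hydroxylase, was high in tumours 1 and 2 only, at 0.44, 0.50, 0.01 and 0.07, with both of its probes between 0.40 and 0.52 in those tumours (limma adjusted p = 0.196). All probes within 50 kb of Cyp2u1 averaged 0.06.

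The following examples of other P450s outside clusters were picked after their values were seen. Cyp7b1, with 15 probes the most of any of the 80 genes, had -0.02, -0.01, 0.03 and 0.01. Cyp7a1, the rate-limiting enzyme of bile acid synthesis, had -0.19, -0.22, -0.10 and 0.02 from 1 probe. Cyp2e1, which oxidises ethanol and paracetamol, was at 0.04, 0.07, 0.15 and 0.15. Cyp24a1, which inactivates vitamin D hormones, had -0.12, -0.15, -0.06 and -0.11, below 0 in all 4 tumours (limma adjusted p = 0.183). Cyp20a1, an orphan P450 with 5 probes, had 0.20, 0.21, 0.16 and 0.13, above 0 in all 4 tumours (limma adjusted p = 0.119).

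**Figure D2:**
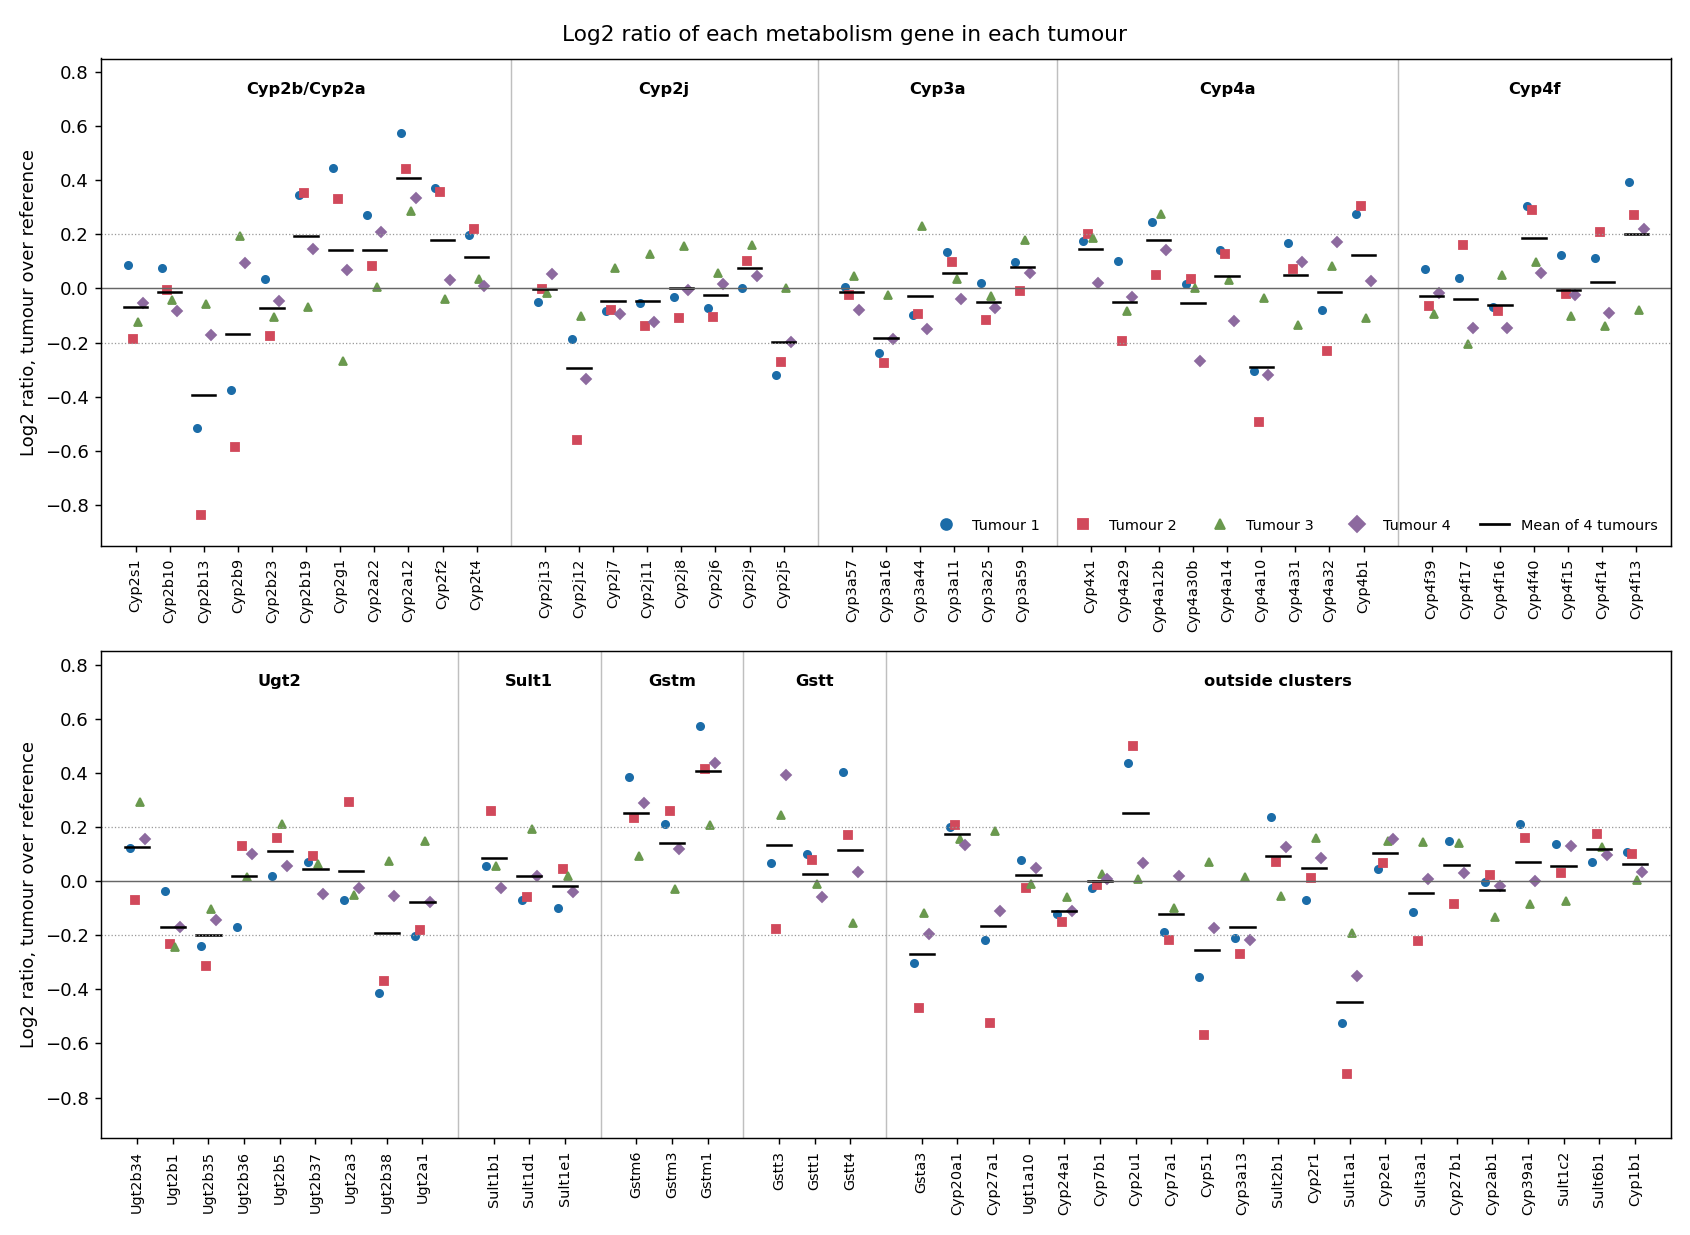
Log2 ratio of tumour over reference (y axis) for each of the 80 genes (x axis, in chromosome order within each cluster), with 1 point per tumour and a black bar for the mean of 4 tumours. Dotted lines mark 0.2 and -0.2. Cyp2b13 and Cyp2b9 reach -0.84 and -0.59 in tumour 2, Cyp2a12 and Gstm1 lie above 0.2 in all 4 tumours, and most other genes scatter around 0.

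Among the conjugating enzymes, the Gstm cluster had the highest cluster mean and Sult1a1 the lowest gene mean. None of these genes passed the test over the 4 tumours before normexp correction. After it, Sult1a1, Gstm1, Gstm6, Gsta3 and Ugt2b38 did. Ugt2 genes, which glucuronidate steroids, bile acids and drugs, number 9 with 17 probes on chromosome 5, and the cluster mean was -0.03 ± 0.09 (SD, n = 4). Ugt2b38 stood at -0.41, -0.37, 0.08 and -0.05 (limma adjusted p = 0.263), but at -0.17, 0.01, 0.10 and 0.05 after brightness correction. Ugt2b35 was lowest in the cluster at -0.24, -0.31, -0.10 and -0.15, below 0 in all 4 tumours (limma adjusted p = 0.129, 1 probe). Ugt2b34 was highest at 0.12, -0.07, 0.29 and 0.16. Ugt2a1, an olfactory Ugt, had -0.20, -0.18, 0.15 and -0.08. One Ugt2a1 probe of 31.7% GC was at -0.65 and -0.70 in tumours 1 and 2, and its other 3 averaged -0.06 and -0.01.

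The Ugt1 locus, where alternative first exons share common later exons, is listed in the array design as Ugt1a10 alone, with 14 probes over 146 kb. It stood at 0.08, -0.03, -0.01 and 0.05 in tumours 1 to 4, and its SEs over probes were between 0.03 and 0.08. Separate Ugt1a genes cannot be told apart in these data.

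Among the sulfotransferases, the Sult1 cluster of chromosome 5 (3 genes, 4 probes) had a mean of 0.02 ± 0.06 (SD, n = 4). Its highest member was Sult1b1, which sulfates thyroid hormones, at 0.05, 0.26, 0.06 and -0.02. Sult1e1, the oestrogen sulfotransferase, was at -0.10, 0.05, 0.02 and -0.04. Sult1a1, the main phenol sulfotransferase of the liver, lies apart on chromosome 7 and had the lowest mean of the 80 genes. Its log2 ratios were -0.53, -0.71, -0.19 and -0.35, a mean of -0.44 ± 0.22 (SD, n = 4) with a limma adjusted p of 0.111. It was lower in 4 of 4 tumours, from 1 probe. All probes within 50 kb averaged -0.15, and after brightness correction the probe stood at -0.33.

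The Gstm cluster, mu-class glutathione transferases, was the highest of the 9. Gstm6, Gstm3 and Gstm1 had 1 probe each at chr3:107744543-107818118, and these are printed because the cluster value is the mean of 3 such probes.
Gstm6 at chr3:107744543-107744602: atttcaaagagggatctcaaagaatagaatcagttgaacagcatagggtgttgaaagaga
Gstm3 at chr3:107770250-107770309: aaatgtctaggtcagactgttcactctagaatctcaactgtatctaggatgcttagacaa
Gstm1 at chr3:107818059-107818118: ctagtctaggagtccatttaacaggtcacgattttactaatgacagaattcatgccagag
The cluster stood at 0.39, 0.30, 0.09 and 0.28 in tumours 1 to 4, a mean of 0.27 ± 0.13 (SD, n = 4). Gstm1, the most abundant mu-class enzyme of the liver, had 0.57, 0.42, 0.21 and 0.44, with a mean of 0.41 ± 0.15 (SD, n = 4) and a limma adjusted p of 0.104. Gstm6 had 0.38, 0.23, 0.09 and 0.29 (limma adjusted p = 0.120), and Gstm3 had 0.21, 0.26, -0.03 and 0.12 (limma adjusted p = 0.216). All but tumour 3 in Gstm3 were above 0.

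The probes between the Gstm genes were less raised. The 5 probes of the same span with other names had means over the tumours from -0.02 to 0.13, with an average of 0.08, and all 8 probes of the span averaged 0.15. In the 500 kb on each side the means were between -0.05 and 0.01 in the 4 tumours. After brightness correction the cluster stood at 0.21 ± 0.09 (SD, n = 4). Gstm1 was then at 0.62, 0.41, 0.20 and 0.45, whereas the mean of Gstm3 was 0.05. Without tumour 3, Gstm1 was the 1 gene of the 80 that passed, with a mean of 0.48 and a limma adjusted p of 0.0482, in a fit that called 1.86% of all genes and 2.11% of those on the same chromosomes.

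Other glutathione transferases differed in direction. Gsta3, an alpha-class enzyme that detoxifies aflatoxin in mice, stood at -0.30, -0.47, -0.12 and -0.20, below 0 in all 4 tumours, with a limma adjusted p of 0.124. Its 3 probes had an SE of 0.23 in tumour 2. All probes within 50 kb averaged -0.03. The Gstt cluster of chromosome 10 (3 genes, 4 probes) had a mean of 0.07 ± 0.07 (SD, n = 4). Gstt3 had 0.07, -0.18, 0.25 and 0.39 and was highest in tumour 4. Gstt1, which conjugates small halogenated molecules, was near 0 at 0.10, 0.08, -0.01 and -0.06.

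**Figure D3:**
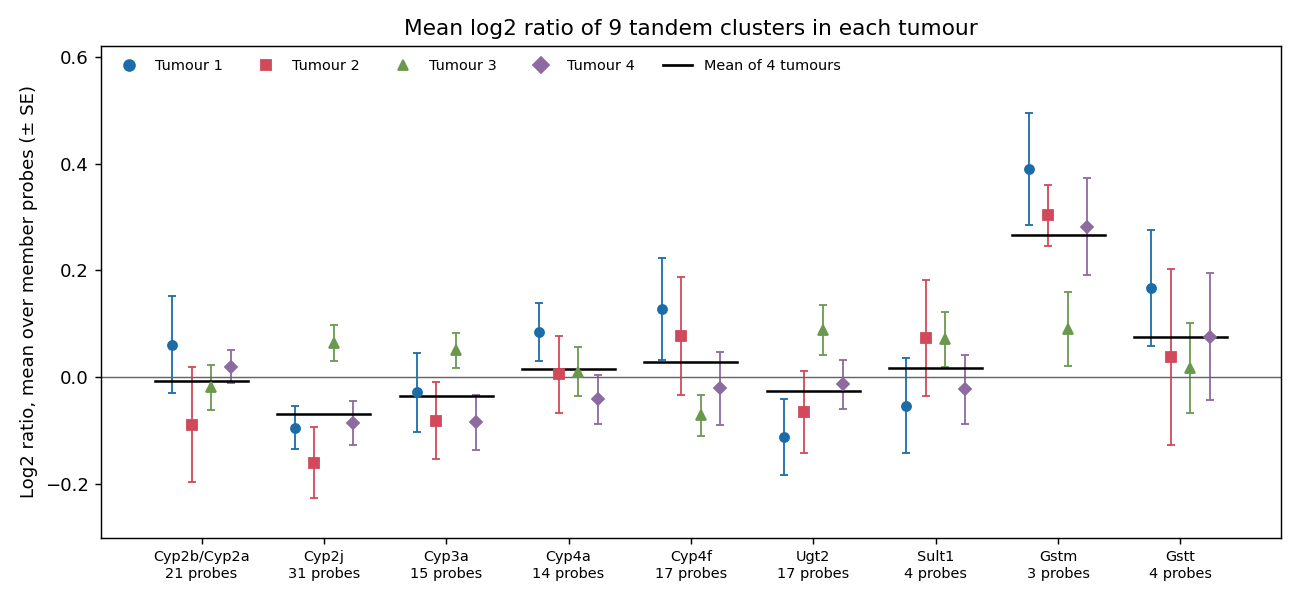
Mean log2 ratio over the member probes of each of the 9 tandem clusters (x axis, with the number of probes), with 1 point per tumour, bars of ± SE over probes and a black bar for the mean of 4 tumours. The Gstm cluster lies at 0.39, 0.30, 0.09 and 0.28, and the other cluster means lie between -0.07 and 0.07.

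With 4 tumours a two-sided exact sign-flip permutation test cannot go below 0.125, so no cluster mean could pass 0.05. Apart from Gstm, the cluster means lay between -0.07 (Cyp2j) and 0.07 (Gstt).

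Differences shared by the tumours were counted beside the same shares over the array. Of the 80 genes, 24 (30%) had the same sign in all 4 tumours, near the 33.4% of all genes and 32.7% of those on the same chromosomes. Genes at 0.2 or higher in all 4 tumours numbered 2 of 80 (2.5%), Cyp2a12 and Gstm1, against 0.409% of all genes and 0.385% of those on the same chromosomes. In at least 3 tumours there were 4 (5.0%), with Gstm6 and Cyp4f13 added, against 4.14%. On the low side, 0 of 80 were at -0.2 or lower in all 4 tumours, against 1.47%. In at least 3 tumours there were 3 (3.75%), Sult1a1, Cyp4a10 and Cyp3a13, against 6.56%. Of the 2 genes high in all 4 tumours, each has 1 probe.

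Counted per tumour, 16, 17, 7 and 6 of the 80 genes were at 0.2 or higher in tumours 1 to 4. The shares of all genes on the array were 23.1%, 20.5%, 4.45% and 5.26%, and those of genes on the same chromosomes 20.2%, 15.9%, 4.19% and 5.4%. At -0.2 or lower there were 13, 17, 3 and 5, against 16.3%, 20.5%, 10.3% and 8.79% of all genes and 11.9%, 19.2%, 9.6% and 9.06% of those on the same chromosomes. Both counts were higher in the pair of tumours with the larger probe noise.

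A difference of at least 0.3 between 1 tumour and the median of the other 3 was seen in 7, 14, 15 and 6 of the 80 genes for tumours 1 to 4. The shares were 8.75%, 17.5%, 18.8% and 7.5%, against 12.7%, 13.1%, 20.4% and 8.15% of all genes and 6.69%, 9.46%, 18.7% and 4.35% of those on the same chromosomes. A gene that splits 2 tumours from the other 2 can reach this limit in every tumour. Cyp2b13, Cyp2b9, Cyp2u1, Ugt2b38 and Cyp2f2 did so in all 4 tumours. The counts are therefore not of genes that differ in 1 tumour alone. In tumour 2 the largest of these differences were those of Cyp2b9 (-0.68 from the median of the others) and Cyp2b13 (-0.67). Both genes were low in tumour 1 as well.

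**Figure D4:**
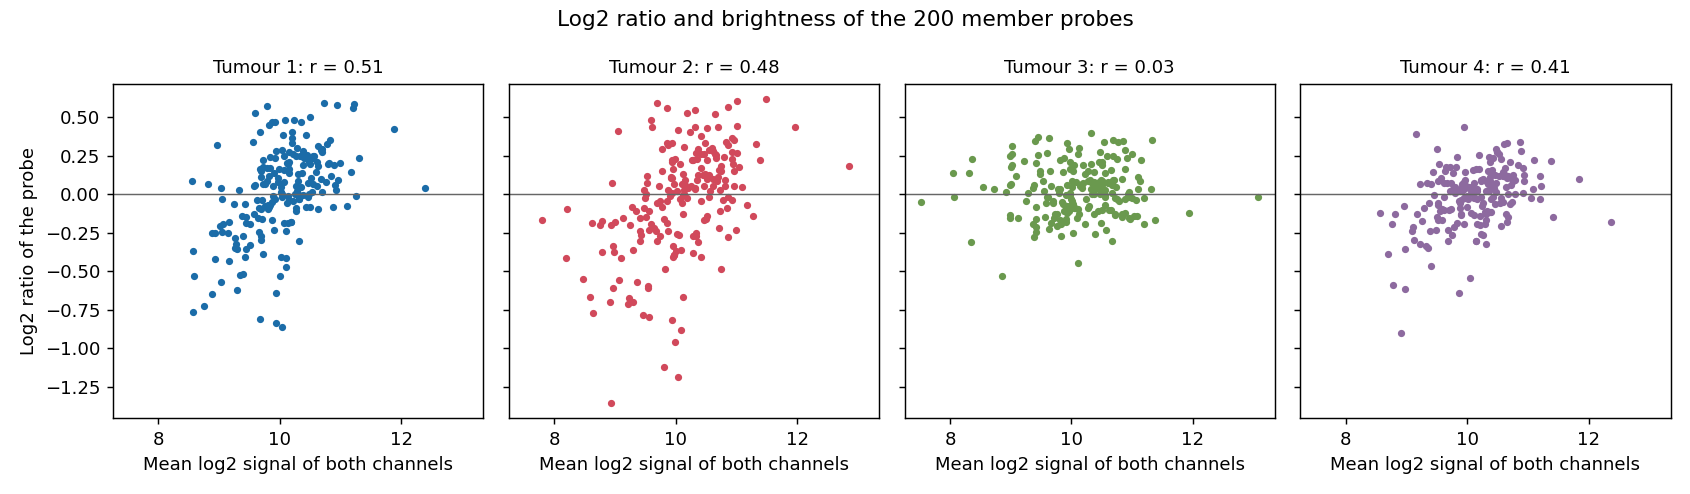
Log2 ratio of each of the 200 member probes (y axis) against the mean log2 signal of its red and green channels (x axis), 1 panel per tumour, 1 point per probe. Dimmer probes have lower ratios in tumours 1, 2 and 4 (r = 0.51, 0.48 and 0.41) but not in tumour 3 (r = 0.03).

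Probe brightness moved with the ratios of these genes. Across the 200 member probes of 1 array, which are not independent replicates and share that array, the log2 ratio and the mean log2 signal had a Pearson r of 0.51, 0.48, 0.03 and 0.41 in tumours 1 to 4. Over all autosomal probes r was 0.53, 0.51, 0.02 and 0.40, close to the values of the members. After brightness correction r over the member probes was between 0.00 and 0.08. With probe GC content r was 0.26, 0.12, 0.02 and 0.17 before any correction. Among genes not yet given with it, the correction moved the mean of Cyp4a12b from 0.18 to 0.10, of Ugt2b34 from 0.12 to 0.05, of Gstm6 from 0.25 to 0.17 and of Gstt3 from 0.13 to 0.32. The part of brightness in each gene's value was not tested beyond the corrected values given above. Among the 54 genes with several probes, the SD between probes of 1 gene was 0.28, 0.34, 0.16 and 0.19 in tumours 1 to 4. The SD between the values of these genes was 0.21, 0.27, 0.11 and 0.12, below the former in each tumour. Each gene value is a mean over several probes, and averaging alone lowers its spread. The sizes of these SDs therefore do not show whether the genes differed by more than probe noise. For single-probe genes such as Cyp2a12, Sult1a1 and Gstm1 the spread between probes could not be measured.

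Genes that regulate or supply the same reactions were looked at in a list of 68, of which 58 were on the array: nuclear receptors, redox partners, cofactor enzymes, transporters and steroid dehydrogenases. With limma, 0 of 58 passed the adjusted threshold. At an unadjusted limma p under 0.05 there were 6 higher and 4 lower, against 10.3% and 14.8% of all genes. Only 37 of the 58 lie on the chromosomes of the name rule. Of those 37, 3 were higher and 3 lower, against 9.56% and 13.4% of genes on these chromosomes. Others lie on chromosomes 9, 12 and 15, whose levels are given below. The median of the 58 was 0.01, against -0.01 over all autosomal genes. The highest was Fmo4, a flavin monooxygenase, with 0.45, 0.38, 0.17 and 0.13 (limma adjusted p = 0.122). The lowest was Hsd3b5, a male-specific steroid dehydrogenase of mouse liver, with -0.35, -0.37, -0.05 and -0.13 (limma adjusted p = 0.150). Nr1i2, the pregnane X receptor that induces Cyp3a genes, had -0.15, -0.27, -0.10 and -0.10 (limma adjusted p = 0.151). Por, the electron donor of microsomal P450s, had 0.22, 0.17, -0.09 and -0.07. Adh1, an alcohol dehydrogenase, was at -0.09, -0.15, -0.30 and -0.27 (limma adjusted p = 0.130).

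The 36 genes of the same families on other chromosomes are set beside the levels of those chromosomes. The 8 on chromosome 15, with Cyp2d and Ugt3a genes, averaged 0.28, 0.24, 0.07 and 0.06, beside chromosome means of 0.27, 0.28, 0.09 and -0.0036. The 6 on chromosome 9, with Cyp1a1 and Gsta4, averaged -0.25, -0.11, -0.05 and 0.02, beside -0.31, -0.19, -0.10 and -0.02. The 17 on chromosome 19, most of them Cyp2c genes, averaged -0.04, 0.02, 0.00 and -0.07, beside chromosome means of 0.04, 0.10, -0.01 and -0.0033, and so lay below their chromosome in tumours 1, 2 and 4. Cyp26b1, alone on chromosome 6, had 0.54, 0.48, -0.03 and 0.20, beside -0.02, 0.09, 0.01 and -0.02. The 3 on chromosome 8 averaged 0.10, 0.17, -0.09 and -0.0022, beside 0.0047, 0.09, -0.03 and -0.03. Cyp46a1, alone on chromosome 12, had -0.34, -0.22, 0.08 and -0.20, beside -0.29, -0.23, -0.07 and -0.02.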

How the data were processed

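Genomic DNA of 4 liver tumours (red, Cy5) and of a pooled reference (green, Cy3; spleen per the design, liver per the labelling protocol) was hybridised to 4 two-colour Agilent arrays. The deposited scanner files give the authors' log10 ratio of red over green, background-subtracted and dye-normalised, and the deposited processed signals as intensity. The scanner software was Agilent Feature Extraction 10.7.3.1, per the submitters' processing notes. The deposited series value table holds ratios on the same log10 scale and was used as an alternative. Probe positions follow mm9 (NCBI build 37), per the file headers, and no mm9 gene annotation or genome was used.

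Control and outlier spots were left out, ratios were turned to log2, repeated spots of a probe were averaged, each array was centred on its autosomal median, and a gene's value was the mean of its own probes. All 20795 genes were fitted with limma 3.58.1 (R 4.3.3), mean against 0, with Benjamini-Hochberg adjustment and a threshold of 0.05. The fit was tested on simulated data with each gene's own spread between tumours. It called 20.9% of genes changed by 0.3 and 71.6% of those changed by 0.6. Most changes of 0.3 were therefore missed there. Corrections for probe GC content and for brightness (the mean log2 signal of both channels) used lowess (statsmodels 0.14.6) per array, and normexp used an offset of 50.

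Genes named with values are the highest and lowest of each cluster, genes with an unadjusted p under 0.05, 1 sign in all 4 tumours and a mean of at least 0.2 in size, genes with at least 2 probes and a value or single-tumour difference of at least 0.3 in size, and genes with a probe at or past 1 in size. Other genes with values were picked with their values in view. The members, gene lists and alternatives were chosen with earlier results of these data known. Each tumour had 1 array, and precision is limited by how few arrays there are. The sequence of 1 probe is not reported here.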

Additional observations from a re-analysis of the deposited data

Results flagged for a closer look

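In the 45 groups of 4 tumour values examined (35 named genes, the 9 clusters and the Ugt1a10 locus), 0 had a tumour whose gap to its nearest neighbour, as a share of the whole range, was above Dixon's critical value. Chance alone passes this limit in about 1 in 20 groups.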

How the results depend on the processing

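No paired analysis was possible because the tumours form a single group against 1 pooled reference. The slide as a random block could not be fitted, since 0 genes had an estimable correlation over the 3 slides. Averaging the arrays of the shared slide, chosen after seeing the data, left 0 of 80 genes past the limma threshold. That count was 10 under normexp and 0 to 1 when each tumour was left out in turn, the 1 being Gstm1 without tumour 3. It was 0 under the other alternatives run, and the cause was not tested.

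Named genes kept their direction and side of the threshold in 469 of the values recomputed, changed sign in 19 and passed the threshold in 9. With all probes within 50 kb the mean was -0.11 for Cyp4a12b, -0.068 for Cyp4b1, -0.021 for Ugt2b34, -0.12 for Sult1b1, 0.050 for Sult1e1, -0.034 for Cyp3a59, -0.0011 for Cyp2b19 and 0.029 for Cyp4f16. With brightness correction, added after seeing the data, it was -0.041 for Cyp3a59, -0.037 for Gstt1 and 0.043 for Cyp4f17. Under normexp it was -0.043 for Gstt3, 0.025 for Cyp4f16 and -0.074 for Cyp4f14. With the median over probes Cyp4f39 stood at 0.067. Leaving out each tumour gave -0.040 to 0.0078 for Sult1e1, -0.10 to 0.017 for Cyp4f17 and -0.039 to 0.077 for Cyp4f14.

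Cluster means changed sign in 15 values and kept it in 111. Cyp4a stood at -0.0066 with mode centring, -0.00055 with GC correction, -0.015 with brightness correction and -0.028 over all probes of its span. Sult1 stood at -0.0046 with mode centring and -0.0043 with brightness correction, and Ugt2 at 0.020 with the latter. Under normexp Cyp3a was at 0.00034 and Cyp2b/Cyp2a at 0.027. Leaving out each tumour gave -0.0046 to 0.062 for Cyp4f, -0.0081 to 0.034 for Cyp4a, -0.0013 to 0.041 for Sult1, -0.063 to 0.0037 for Ugt2 and -0.029 to 0.021 for Cyp2b/Cyp2a. The signs of the Gstm, Gstt and Cyp2j means held in every alternative run, and a gap of 1 Mb left all 9 means as they were.

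Genes past 0.2 in size numbered 29, 34, 10 and 11 in tumours 1 to 4. For the alternatives that follow, shares over all genes are not given. Those counts therefore cannot be set against the array and only show how the numbers move with the processing. They were 7, 9, 0 and 2 with all probes within 50 kb, and 8, 7, 0 and 2 among only the 22 genes with at least 3 probes. At 0.1 they were 47, 53, 37 and 35, and at 0.3 they were 18, 17, 0 and 6. Under normexp tumours 3 and 4 had 29 and 27. Differences of at least 0.3 between 1 tumour and the median of the others were counted likewise. They numbered 2, 2, 4 and 1 with all probes within 50 kb, and 1, 2, 2 and 1 among those 22 genes. At 0.2 they numbered 15, 22, 31 and 15, and at 0.5 they numbered 0, 2, 2 and 0. Under normexp tumours 1 and 4 had 15 and 10. With a tumour left out the ranges were 1 to 11, 7 to 20, 9 to 19 and 0 to 8. Few probes per gene, 1 array per tumour and signals as low as 182 units limit what can be seen at single genes.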
